A study of Mus musculus with 12 samples.

Results

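The 10 genes described here build and load major histocompatibility complex (MHC) class I molecules: the heavy chains H2-D1, H2-K1, and H2-T23, the light chain B2m, the peptide transporter subunits Tap1 and Tap2, the loading chaperone Tapbp, and the immunoproteasome subunits Psmb8, Psmb9, and Psmb10. They were taken from the 19662 genes that passed the filter on signal, by matching the accession of each probe to a gene symbol. All 10 were measured, with 11 probes, since H2-K1 had 2. MHC class I molecules hold peptides cut from proteins made inside the cell and show them at the cell surface to CD8 T cells. The proteasome cuts the peptides, the TAP transporter carries them into the endoplasmic reticulum, and tapasin holds an empty class I molecule next to the transporter until a peptide binds. In the brain these genes are known to be low in resting neurons and to rise with interferon, which also replaces the constitutive catalytic subunits of the proteasome with immunoproteasome subunits.

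Gene expression was measured in 12 mouse models on 12 Agilent arrays, each with RNA pooled from 3 animals, so there was 1 array per model and no replicate. No p-value can therefore be given, a difference of 2-fold was counted as a call, and the share of all 19662 genes past the same line is printed as the background. The cortex set held prefrontal cortex of C57BL/6 mice aged 1.5, 4, 17, and 22 months. The transgenic set held hippocampus of mice labelled C57BL/6, although the methods name C57BL/6N for the normal controls of the NCSTN and 5xFAD lines. These mice carried mutated human NCSTN (aged 10 months), wild-type human MAPT (12 months), or the 5xFAD transgenes, which include human APP with the Swedish, Florida, and London changes (6 months). The ICR set held hippocampus of ICR mice, an outbred stock, given in the methods as 7 weeks of age. Aβ at 5 or 10 μM and streptozotocin at 2.5 or 3 mg/kg were injected into the ventricle 14 days before sampling. Scopolamine at 1 mg/kg was injected into the peritoneum 30 min before. The age at sampling is not stated and may differ between the scopolamine array and the others. Nontransgenic littermates and sham-injected mice were not analysed here. Each array was therefore set beside the remaining arrays of its own set. Within the transgenic set the model and the age cannot be told apart, and the 3 lines carry different human genes. The methods also name another supplier for the 5xFAD mice than for the NCSTN and MAPT mice. Whether the 3 lines differ in class I alleles was not tested.

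Before the results, the arrays were checked against their labels. The log2 of the summed signal of the 5 cortex markers lay between 13.03 and 13.50 on the cortex arrays and between 10.64 and 11.62 on the hippocampus arrays. That of the 6 hippocampus markers lay between 11.12 and 11.42 on the cortex arrays and between 13.08 and 13.85 on the hippocampus arrays. The methods state male mice throughout, whereas Xist, the RNA that silences an X chromosome in female cells, had log2 levels of 8.58, 8.73, and 8.72 on the NCSTN, MAPT, and 5xFAD arrays and was not well above background on the other 9. The Y-linked genes Eif2s3y, Kdm5d, and Uty were not well above background on those 3 arrays. All 3 transgenic arrays share this pattern, so it does not separate them from each other. The class I region differs between mouse strains, and a heavy chain probe designed on 1 allele can bind another less well. Levels were therefore not compared between the sets. Heavy chain genes are also close copies of each other, so a probe for 1 of them may pick up RNA of another.

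Promoter sequences are shown first for pairs of members that have regulatory letters in common, which the choice of genes did not use. No motif searched was common to the whole group. Apart from the GC box, each was in 2 of 9 windows, and Psmb8 and Psmb10 held none of them. Each motif was searched only as spelled below, so other spellings of the same element were not counted in any window. RefSeq gave a promoter window for 9 of the 10 members (250 bases before to 50 after the start site, mouse assembly GRCm38.p6), and Tap2 had no entry. The windows of H2-K1 and H2-D1 hold the same stretch, printed from the gene's strand, with capitals for GGGGATTCCC (the κB element, bound by NF-κB), GAAGTGAAA read on the other strand (an interferon element), and TGACGC (part of the X box, to which the RFX and CREB complex and, through it, NLRC5 are recruited).
H2-K1, chr17:34000368-34000473, minus strand: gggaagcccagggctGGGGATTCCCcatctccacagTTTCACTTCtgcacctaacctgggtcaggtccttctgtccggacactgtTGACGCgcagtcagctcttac
H2-D1, chr17:35262908-35263013, plus strand: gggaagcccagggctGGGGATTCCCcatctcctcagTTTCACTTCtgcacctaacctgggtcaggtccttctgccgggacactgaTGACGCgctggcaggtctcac
The 2 stretches were identical at 98 of 106 positions. GGGGATTCCC and TGACGC began 70 bases apart in each, at 111 and 41 bases before the start site of H2-K1 and at 171 and 101 before that of H2-D1. On either strand, within the 250 bases before the start site, GGGGATTCCC occurred in 0.0852% of all 32851 promoter windows, GAAGTGAAA in 0.402%, and TGACGC in 6.12%.

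B2m and H2-T23 hold GAAANNGAAA, the core of the element bound by interferon regulatory factors. It occurred in 2.98% of all windows. It is in capitals below, and in H2-T23 it lies on the other strand.
B2m, chr2:122147518-122147587, plus strand: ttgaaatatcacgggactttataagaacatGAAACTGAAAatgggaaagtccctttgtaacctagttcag
H2-T23, chr17:36032786-36032855, minus strand: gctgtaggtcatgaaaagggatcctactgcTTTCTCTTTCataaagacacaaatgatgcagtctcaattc
The core began 139 bases before the start site of B2m and 124 before that of H2-T23. Psmb9 and Tap1 are neighbours read away from each other, and the 225 bases between their start sites serve as the promoter of each; the capitals mark the GC box (GGGCGG, here on the other strand), which 32.7% of all windows hold.
Psmb9 to Tap1, chr17:34187331-34187555, plus strand: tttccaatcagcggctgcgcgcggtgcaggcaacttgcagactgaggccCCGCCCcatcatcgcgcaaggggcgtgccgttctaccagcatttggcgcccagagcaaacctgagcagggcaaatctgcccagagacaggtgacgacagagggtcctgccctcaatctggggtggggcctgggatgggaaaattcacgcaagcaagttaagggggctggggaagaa
In the order of the assembly, Psmb9, Tap1, Psmb8, and Tap2 follow each other without another gene between them. Of the 10 members, 8 lie on chromosome 17, whereas B2m lies on chromosome 2 and Psmb10 on chromosome 8. The motifs were chosen with the sequences in view, and a match is a description of the letters, not evidence of a bound factor.

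The main difference lay in the transgenic hippocampus. On the 5xFAD array, 9 of the 10 genes were higher than on both the NCSTN and the MAPT arrays, and the exception was Psmb10. By comparison, 37.1% of all genes were highest on the 5xFAD array. Against NCSTN and MAPT averaged, 5 of the 10 were at least 2-fold higher (H2-D1, B2m, Tap1, Tap2, and Psmb8) and none was 2-fold lower, whereas 6.04% of all genes were at least 2-fold higher and 4.68% at least 2-fold lower. The median over the 10 genes was 1.01 on the log2 scale, and the median over all genes was -0.05.

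The classical heavy chains H2-D1 and H2-K1 present peptides to CD8 T cells, and H2-T23 encodes Qa-1, a nonclassical heavy chain read by NKG2 receptors. H2-D1 had log2 levels of 11.40 on the NCSTN, 11.06 on the MAPT, and 12.26 on the 5xFAD array. H2-K1 had 11.23, 10.94, and 12.00 on the same arrays. H2-T23 had 11.27, 10.82, and 11.97. All 3 were highest on 5xFAD and lowest on MAPT, with 5xFAD above the mean of the others by 1.03, 0.91, and 0.92 on the log2 scale, or 2.04-, 1.89-, and 1.90-fold. The 2 probes of H2-K1 gave 0.98 and 0.85. The first of these is spotted 10 times on each array, and the SD over its spots was 0.05, 0.04, and 0.06 on the NCSTN, MAPT, and 5xFAD arrays on the log2 scale. This spread covers the spotting and the scan only, not the animals.

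B2m, the light chain that every class I heavy chain needs to reach the surface, had log2 levels of 12.84 on NCSTN, 12.74 on MAPT, and 14.12 on 5xFAD. It was nearly level between the first 2 arrays and 2.51-fold higher on 5xFAD (1.33 on the log2 scale). This was the largest ratio among the 10 genes against the mean of NCSTN and MAPT, but against neither array alone. Against NCSTN, Tap2 differed by 1.31 and B2m by 1.28. Against MAPT, Psmb8 differed by 1.43, Tap1 by 1.42, and B2m by 1.38.

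Tap1 and Tap2 form the peptide transporter. Tap1 was dim, with log2 levels of 4.52, 4.15, and 5.57 on NCSTN, MAPT, and 5xFAD. All 10 of its spots were well above background on each of these 3 arrays, and the SD over spots was 0.14, 0.18, and 0.10. Tap2 had 9.94, 10.33, and 11.25. Both subunits were highest on 5xFAD, Tap1 by 1.23 and Tap2 by 1.12 on the log2 scale against the mean of the others, but Tap2 was the member with a lower level on NCSTN than on MAPT. Tapbp (tapasin) had 9.99, 9.94, and 10.52, so it differed by less than 2-fold, with a ratio of 0.56 on the log2 scale.

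The immunoproteasome subunits did not move alike. Psmb8 had log2 levels of 8.90 on NCSTN, 8.64 on MAPT, and 10.07 on 5xFAD. Psmb9 had 8.43, 8.35, and 9.39. Psmb10 had 13.98, 13.72, and 13.71. Psmb8 was 2.47-fold higher on 5xFAD, Psmb9 lay at the line with a ratio of 0.9996 on the log2 scale, and Psmb10 was level with MAPT and below NCSTN (-0.14 against their mean). Each of these subunits takes the place of a constitutive one: Psmb8 that of Psmb5, Psmb9 that of Psmb6, and Psmb10 that of Psmb7. Psmb5 had 14.84, 14.81, and 14.79, Psmb6 had 14.85, 14.77, and 14.94, and Psmb7 had 12.83, 12.71, and 12.52. Their 5xFAD ratios were -0.04, 0.13, and -0.25, so none of the 3 constitutive partners reached 2-fold. The other 11 subunits of the 20S proteasome had a median ratio of 0.00, and none of them reached 2-fold either.

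**Figure D1:**
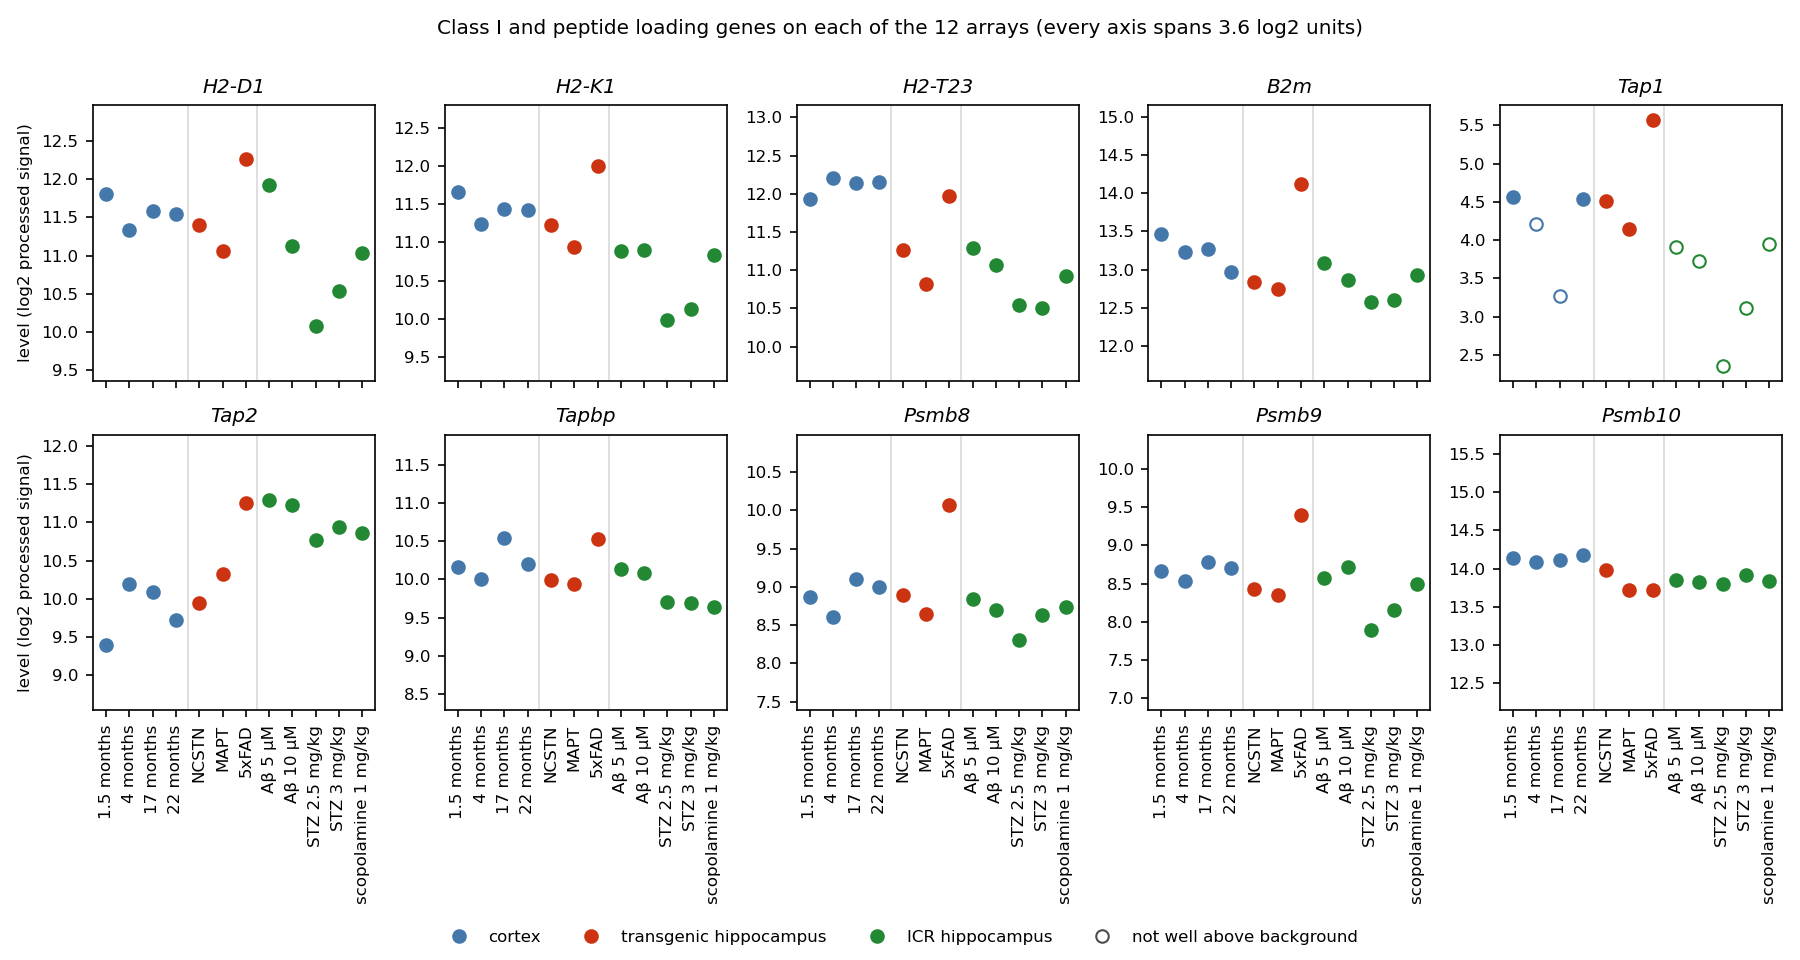
Log2 level (processed signal after quantile normalization) of each of the 10 genes on the 12 arrays, coloured by set, with open points where the probe was not well above background; 1 point is 1 array and every axis spans the same number of log2 units. The 5xFAD point stands above both other transgenic points for every gene but Psmb10, and the streptozotocin points are among the lowest of the ICR set for most genes.

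**Figure D2:**
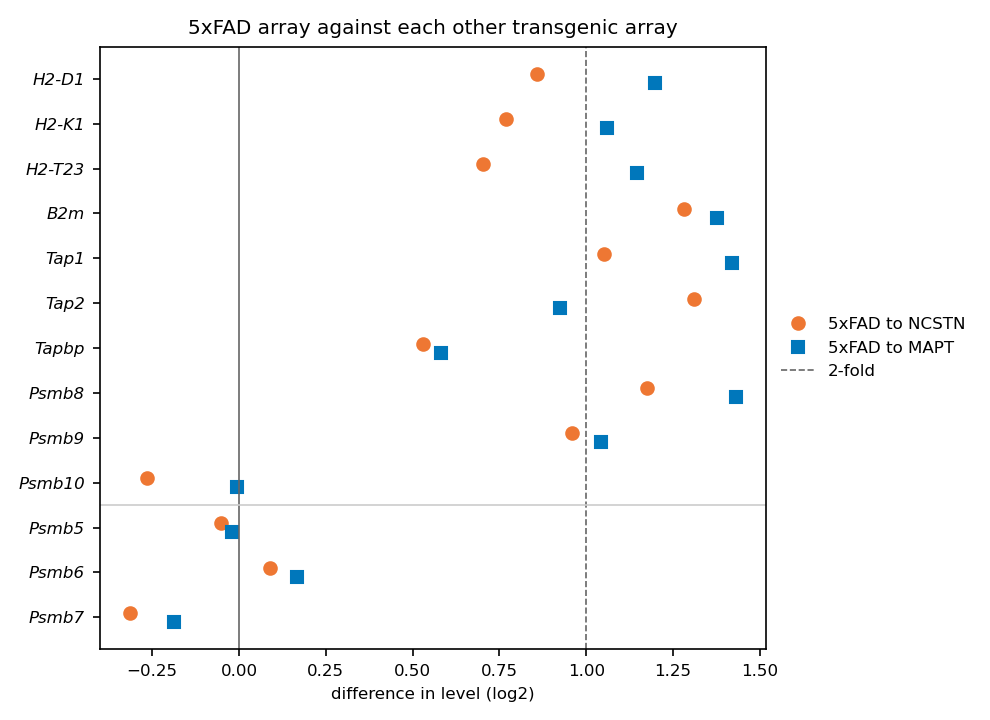
Difference in log2 level between the 5xFAD array and the NCSTN array (circles) or the MAPT array (squares) for the 10 genes and, under the grey line, the constitutive proteasome subunits that Psmb8, Psmb9, and Psmb10 replace. B2m, Tap1, and Psmb8 lie past the dashed 2-fold line against either array, and Psmb10 lies with the constitutive subunits near 0.

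The 2 reference arrays gave different counts. Against MAPT alone, 7 of the 10 genes were at least 2-fold higher on 5xFAD (background 6.62%), and against NCSTN alone 4 were (background 6.33%). B2m, Tap1, and Psmb8 were past 2-fold against each of them. NCSTN and MAPT differed little from each other: none of the 10 genes reached 2-fold (background 4%), 9 were higher on NCSTN, as were 54.7% of all genes, and the median difference was 0.26 on the log2 scale. The largest was 0.44, for H2-T23, and Tap2 ran the other way (-0.38). Under the 8 other ways of processing, the 5xFAD ratio ranged from 0.99 to 1.08 for H2-D1 and from 0.62 to 1.09 for Psmb9, so these 2 genes cross the line with the processing. That of Tap1, measured under 7 of them, ranged from 0.35 to 1.52, and the lowest came from background correction with an offset of 50, which compresses dim probes by its construction. B2m, Tap2, and Psmb8 were past 2-fold under each of the 8, and H2-K1, H2-T23, Tapbp, and Psmb10 under none.

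The wider pathway was read from lists of genes. Of 13 measured other class I heavy chains (19 listed), 12 were higher on 5xFAD than the mean of NCSTN and MAPT, as were 44.1% of all genes. Their median ratio was 0.58 on the log2 scale, and 3 of them were higher by at least 2-fold. H2-Q4, a gene of the Q region, had log2 levels of 14.66, 15.61, and 16.58 on NCSTN, MAPT, and 5xFAD. H2-Q2 had 9.66, 9.05, and 10.55. H2-M3, which presents formylated peptides, had 6.84, 6.96, and 7.95. All 3 were highest on 5xFAD, with ratios of 1.44, 1.20, and 1.05. In the other sets the order of H2-Q4 differed from that of most members. In the cortex it had 15.60, 15.28, 14.81, and 14.05 at 1.5, 4, 17, and 22 months. In the ICR set it was highest at 2.5 mg/kg streptozotocin (15.25). None of the 11 peptide loading and trimming partners reached 2-fold (median 0.14).

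Among 15 regulators of class I transcription, 14 were well above background on all 3 arrays. Of these, 3 were at least 2-fold higher on 5xFAD and none was 2-fold lower, with a median of 0.40. Irf8, an interferon regulatory factor of myeloid cells, had log2 levels of 8.94, 8.97, and 11.28 on NCSTN, MAPT, and 5xFAD. Stat2, which carries the signal of type I interferon, had 10.16, 10.14, and 11.36. Rela, the p65 subunit of NF-κB, had 12.04, 12.12, and 13.17. The ratios were 2.32, 1.21, and 1.10 on the log2 scale, and each gene was level between NCSTN and MAPT. The remaining gene was Ciita, the regulator of class II genes, which was well above background on the 5xFAD array and not on the others, and was at least 1.35-fold higher there. Nlrc5, the transactivator of class I genes, had 4.97, 4.53, and 5.64, a ratio of 0.88.

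Of 9 interferon ligands and receptors, 1 reached 2-fold: Ifnar2, a chain of the type I interferon receptor, with log2 levels of 10.25, 10.20, and 11.31 on NCSTN, MAPT, and 5xFAD. The ligand genes Ifng and Ifnb1 were not well above background on any of the 12 arrays. Of 8 class I receptors on lymphocytes and glia, 2 were at least 2-fold higher on 5xFAD. Lilrb4a, an inhibitory receptor of myeloid cells, had 3.94, 3.75, and 8.62, a ratio of 4.78 on the log2 scale and the largest in these lists. Pilra, a paired receptor of myeloid cells, had 4.31, 4.35, and 5.72, a ratio of 1.39. Neither of them is known chiefly for binding class I. Pirb, which is known to bind class I on myeloid cells and neurons, had 6.32, 5.95, and 6.69 and did not reach 2-fold.

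Cell type markers moved on the same array. All 12 microglia markers were higher on 5xFAD than the mean of NCSTN and MAPT, against 44.1% of all genes, with a median ratio of 1.34. Those past 2-fold included Tyrobp, Ctss, C1qa, Cx3cr1, Aif1, Csf1r, and C1qc, with ratios from 2.75 for Tyrobp to 1.18 for C1qc. The log2 of their summed signal was 15.38 on NCSTN, 15.32 on MAPT, and 17.32 on 5xFAD. All 5 astrocyte markers were higher too, with log2 sums of 14.66, 14.46, and 15.23, and Gfap and Aqp4 passed 2-fold. Of the 8 T cell markers, 4 were well above background on all 3 arrays, 1 of these was higher, and none reached 2-fold. The log2 sums of the T cell list were 9.85, 10.38, and 9.76, and Cd3g and Cd8a were not well above background on any of the 3 arrays. Of the 7 choroid plexus markers 5 were higher, with a median of 0.70 and Kcnj13 past 2-fold, and of the 6 fibroblast and meninges markers 4 were higher and none by 2-fold, with a median of 0.39. All 5 cortex markers were lower, with a median of -0.57. Of the 6 hippocampus markers 2 were higher (median -0.42). Endothelium had 2 of 7 markers higher and Cldn5 at least 2-fold lower, and neurons had 1 of 5 higher and none past 2-fold. In the B cell list Cd79b passed 2-fold upward and Cd79a downward, and in the red blood cell list Hbb-bs passed upward. The part of any of these markers in the class I result was not tested. In pooled bulk tissue, more cells of a type and more RNA per cell cannot be told apart.

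**Figure D3:**
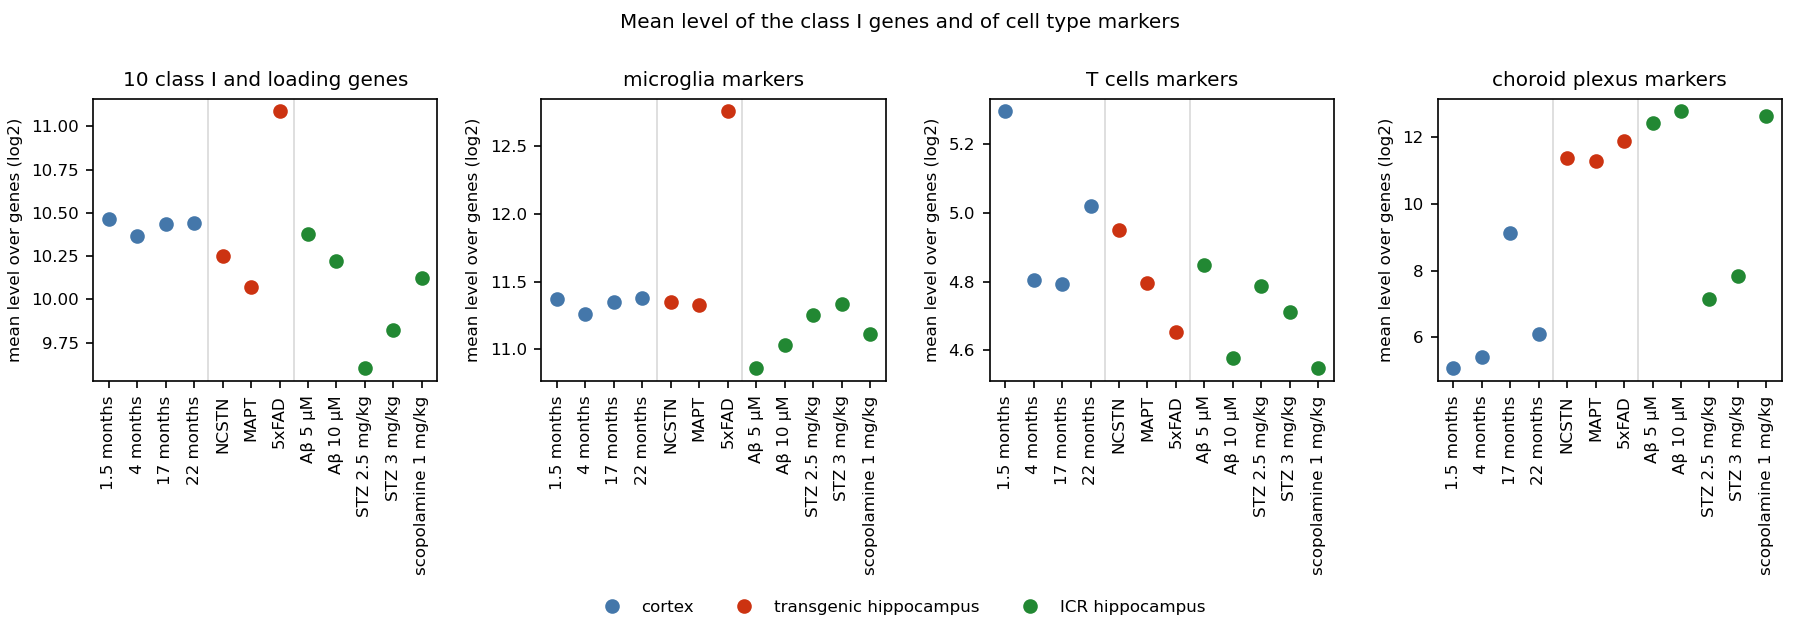
Mean log2 level over the 10 class I and loading genes and over marker lists of microglia (12 genes), T cells (8 genes), and choroid plexus (7 genes) on each of the 12 arrays, coloured by set; each panel has its own scale. The microglia markers average 12.76 on the 5xFAD array against 11.35 on NCSTN and 11.33 on MAPT, and the choroid plexus markers are low on the streptozotocin arrays and high on the 17-month array.

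In the ICR hippocampus the Aβ and streptozotocin arrays were compared, since each agent was given at 2 doses. Tap1 was not well above background on any of the 5 ICR arrays, which leaves 9 members. For 8 of these 9, both Aβ arrays were above both streptozotocin arrays, against 19.6% of all genes, and Psmb10 was again the exception. The differences were small: H2-D1 alone reached 2-fold (background 5.1%). The median over the 9 genes was 0.42 on the log2 scale (0.52 with Tap1), and over all genes -0.03.

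H2-D1 had log2 levels of 11.92 and 11.13 on the arrays with 5 and 10 μM Aβ, 10.07 and 10.54 on those with 2.5 and 3 mg/kg streptozotocin, and 11.03 on the scopolamine array. H2-K1 had 10.89, 10.90, 9.99, 10.13, and 10.83 in the same order. H2-T23 had 11.29, 11.07, 10.55, 10.51, and 10.93. The streptozotocin arrays were the 2 lowest for each heavy chain, and the scopolamine array lay between them and the Aβ arrays. For H2-K1 the place of scopolamine holds for the mean of its 2 probes. On the probe spotted 10 times, scopolamine (11.56) lay above 5 μM Aβ (11.41) and below 10 μM Aβ (11.68). The differences between the Aβ and streptozotocin means were 1.22, 0.83, and 0.65 on the log2 scale. For H2-D1 the difference was 0.82 without the 5 μM Aβ array and 0.98 without the 2.5 mg/kg streptozotocin array, so either array decides whether it passes 2-fold.

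B2m had log2 levels of 13.09, 12.86, 12.58, 12.60, and 12.92 in that order, a difference of 0.38 between the Aβ and streptozotocin means. Tap2 had 11.29, 11.23, 10.77, 10.93, and 10.86. Tapbp had 10.13, 10.09, 9.70, 9.69, and 9.64. For Tap2 and Tapbp the scopolamine array fell with the streptozotocin arrays and not with the Aβ arrays. The signal of Tap1 was 3.91, 3.72, 2.36, 3.11, and 3.95 and gives no fold, because at most 2 of its 10 spots were well above background on any of these arrays.

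Psmb8 had log2 levels of 8.84 and 8.70 with Aβ, 8.30 and 8.63 with streptozotocin, and 8.74 with scopolamine. Psmb9 had 8.57, 8.72, 7.90, 8.15, and 8.50. Psmb10 had 13.85, 13.83, 13.80, 13.92, and 13.84. The first 2 were lowest at 2.5 mg/kg streptozotocin, while Psmb10 spanned 0.11 on the log2 scale. Psmb5, Psmb6, and Psmb7 spanned 14.83 to 14.97, 14.89 to 15.11, and 12.72 to 12.90.

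Single arrays were also set against the mean of the other 4 ICR arrays. At 5 μM Aβ, H2-D1 was 1.23 higher on the log2 scale, and it was the only member past 2-fold (background 3.83%). The value stayed between 1.02 and 1.37 with any 1 of the other arrays left out. H2-D1 was read from 1 probe with 1 spot on each array, so no spread over spots can be given for it. At 10 μM none passed (5.78% in either direction). At 2.5 mg/kg streptozotocin 7 of the 9 genes other than Tap1 were lower than on every other ICR array (21.9% of all genes), and H2-D1 alone passed 2-fold, at -1.08 (background 4.85%). This call was lost without the 5 μM Aβ array (-0.82), in the deposited matrix (-0.83), and with normexp background correction (-0.99). At 3 mg/kg none passed (5.01%), nor did any for scopolamine (5.15%). The median over the 10 genes for scopolamine was 0.12, and its direction turned in the deposited matrix (-0.10) and without the 2.5 mg/kg streptozotocin array (-0.0035). Between the 2 doses of Aβ, H2-D1 was 0.79 higher at 5 μM on the log2 scale, whereas the 2 probes of H2-K1 ran in opposite directions (-0.28 and 0.25). Between the 2 doses of streptozotocin, H2-D1 was lower at 2.5 mg/kg (-0.46), as were both probes of H2-K1 (-0.05 and -0.23). ICR mice are outbred, and whether the pools differ in H2-D1 allele was not tested.

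Markers of tissue next to the hippocampus moved with these genes. Of the 7 choroid plexus markers, the 6 that were well above background on all 4 arrays were each at least 2-fold higher on the Aβ than on the streptozotocin arrays, with a median difference of 5.29. The log2 of their summed signal was 17.53 and 17.60 with Aβ, 11.71 and 12.44 with streptozotocin, and 17.54 with scopolamine. The 6 fibroblast and meninges markers were all at least 2-fold higher as well, with log2 sums of 15.31 and 14.90 against 12.13 and 14.00, and 13.95 with scopolamine. The 7 endothelium markers were all higher but none by 2-fold (median 0.44), while 42.9% of all genes were higher. By contrast, all 12 microglia markers were lower on the Aβ arrays, with log2 sums of 14.96 and 15.15 against 15.41 and 15.50. All 5 cortex markers were lower as well (median -0.61), with log2 sums of 10.84 and 10.95 against 11.62 and 11.35. The class I genes thus ran in the direction of the choroid plexus, fibroblast, and endothelium markers and opposite to the microglia and cortex markers, and the part of any of them in the result was not tested. On the scopolamine array the choroid plexus markers were as high as on the Aβ arrays. Set against scopolamine in place of streptozotocin, the Aβ arrays had a median of 0.10 over the 10 genes and 0.14 over the 9 without Tap1. Of the 10, 9 were higher on the Aβ mean than on scopolamine, as were 47.1% of all genes. None of the 10 reached 2-fold (background 5.78%), and the difference of H2-D1 was 0.49.

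**Figure D4:**
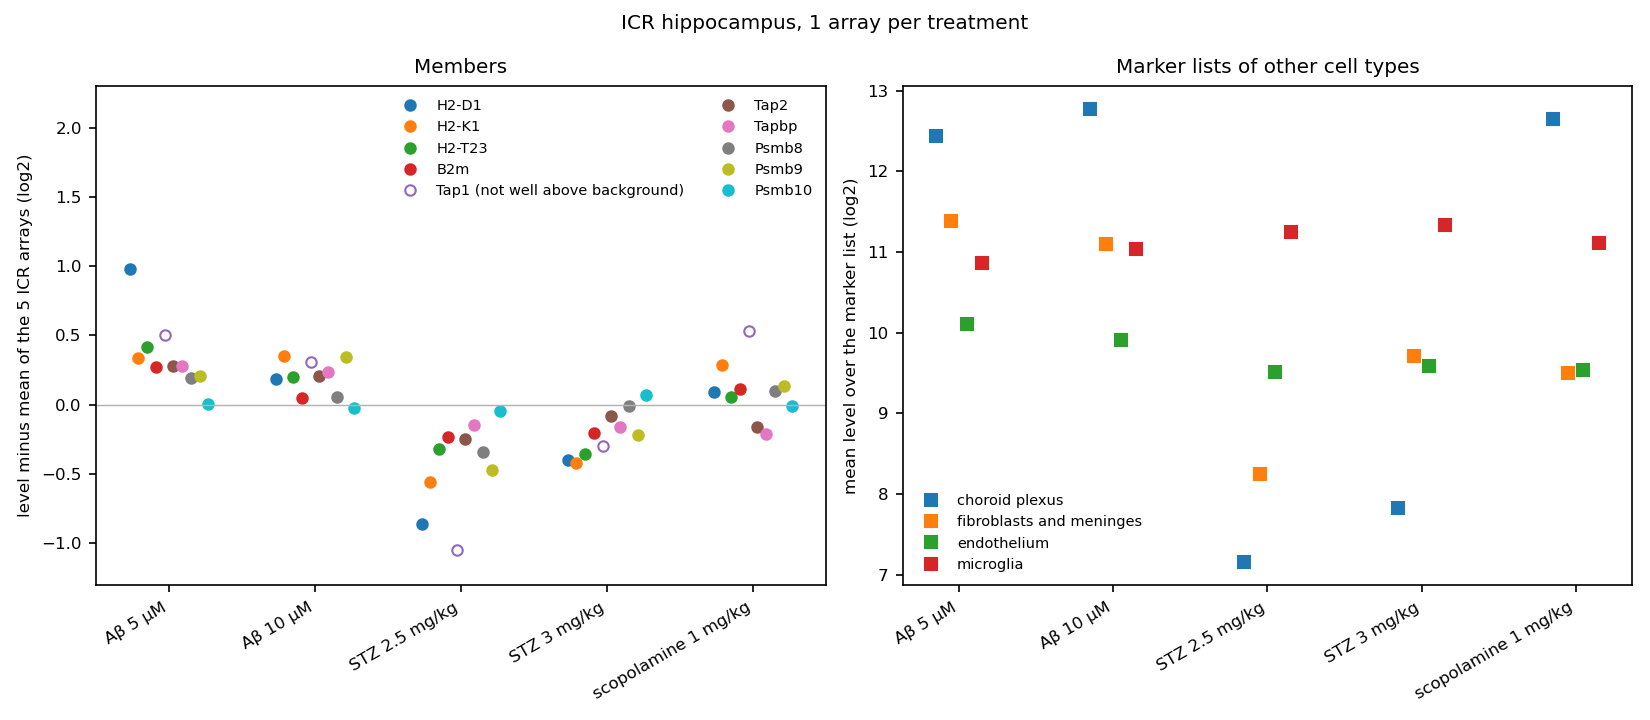
Left, log2 level of each of the 10 genes on the 5 ICR hippocampus arrays minus its mean over the 5, with Tap1 open because it was not well above background; right, mean log2 level of marker lists of choroid plexus (7 genes), fibroblasts and meninges (6), endothelium (7), and microglia (12) on the same arrays. The arrays with 2.5 and 3 mg/kg streptozotocin (STZ) lie below 0 for 10 and 9 of the genes, Tap1 included. Of all genes, 50.9% and 53.7% lie above 0 on these arrays. The choroid plexus markers average 7.15 and 7.83 there against 12.43, 12.78, and 12.65 on the others.

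Of 13 other class I heavy chains, 11 were well above background on all 4 Aβ and streptozotocin arrays. Of these, H2-Q7, Mr1, and Hfe, named after their values were seen, were at least 2-fold higher with Aβ, none was 2-fold lower, and the median was 0.58. H2-Q7 had log2 levels of 11.04 and 10.37 with Aβ, 9.24 and 9.73 with streptozotocin, and 10.33 with scopolamine, an order like that of H2-D1. None of the 15 regulators of class I transcription reached 2-fold in the comparison of Aβ with streptozotocin (median -0.11). Irf1, an interferon-induced activator of class I genes that was also named after its values were seen, stood apart on 1 array: it had 8.19 at 10 μM Aβ and 5.93, 5.89, 6.30, and 5.75 on the other ICR arrays. Of the 9 members other than Tap1, 2 were above every other ICR array at 10 μM (15.3% of all genes). These were Psmb9 and H2-K1, the latter with 10.90 against 10.89 at 5 μM. At 5 μM, 6 of the 9 were above every other ICR array (16.9%). Whether Irf1 has a part in these levels was not tested.

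The 10 genes differed little between old and young cortex. None of them reached 2-fold between the mean of 17 and 22 months and the mean of 1.5 and 4 months (background 3.5%), and the median difference was 0.06 on the log2 scale, against 0.01 over all genes. Across the 4 ages, none of the 9 members that were well above background on all 4 arrays spanned 2-fold. Among all genes, dim ones included, 14.3% did. The other member was Tap1. The median span over the 10 genes was 0.48 on the log2 scale, against 0.39 over all genes.

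H2-D1 had log2 levels of 11.80, 11.34, 11.58, and 11.55 at 1.5, 4, 17, and 22 months. H2-K1 had 11.66, 11.24, 11.43, and 11.42, and H2-T23 had 11.93, 12.20, 12.14, and 12.16. The classical chains were highest at 1.5 months and lowest at 4 months, whereas H2-T23 was lowest at 1.5 months, and in no case did the old arrays lie apart from the young ones. B2m had 13.47, 13.23, 13.27, and 12.97, so its lowest level was at 22 months. Tap2 had 9.39, 10.19, 10.09, and 9.72, the widest span among members well above background, and Tapbp had 10.16, 10.01, 10.54, and 10.20.

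Psmb8 had log2 levels of 8.86, 8.61, 9.11, and 8.99 at the 4 ages. Psmb9 had 8.67, 8.53, 8.78, and 8.70. Psmb10 had 14.14, 14.09, 14.11, and 14.18. Psmb8, Psmb9, and Tapbp were the 3 members for which both old arrays were above both young ones, by 0.31, 0.14, and 0.29, and 20.1% of all genes had this order. Tap1 had 4.56, 4.21, 3.26, and 4.54. With 6, 4, 0, and 5 of its 10 spots well above background, it counted as measured at 1.5 and 22 months and not at 4 and 17 months, for which at least 5 spots were asked, and the value at 17 months was at least 1.17-fold lower than the mean of the other arrays.

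The 17-month cortex array also carried choroid plexus signal, with a log2 sum of 15.63 over the 7 markers against 9.21, 8.81, and 9.27 at 1.5, 4, and 22 months. The 6 fibroblast and meninges markers were highest at 1.5 months, with a log2 sum of 13.58 against 12.57 to 12.83, as were H2-D1, H2-K1, and B2m. The 12 microglia markers had log2 sums between 15.27 and 15.39, and no marker of that list reached 2-fold between old and young arrays. The part of these markers in the cortex values was not tested.

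The genes whose pattern was most like the mean of the 10 were found among 14018 other genes that were well above background on all arrays, after each set was centred on its own mean. Over the 12 arrays these were Cd63, Loxl3, Anxa4, Ifi35, and Aldh16a1, with Pearson's r between 0.97 and 0.99. Without the transgenic arrays, over the other 9, they were Chst14, Cd63, Perp, Cpq, and St6galnac2, with r between 0.98 and 0.99, so that Cd63 was on each list. Against the mean of the other 9 members over the 12 arrays, Psmb9 (0.96), H2-K1 (0.93), and H2-T23 (0.92) followed the group most closely, Tap2 (0.63) and Tap1 (0.71, with 7 arrays on which it was not well above background) less so, and Psmb10 did not (-0.26). Over the 9 cortex and ICR arrays, H2-D1 (0.93), H2-K1 (0.91), Psmb9 (0.91), and H2-T23 (0.85) followed the other members most closely. There B2m had 0.70, Psmb8 0.69, Tap1 0.58, Tapbp 0.54, Tap2 0.31, and Psmb10 0.04. All these coefficients describe arrays that share 1 normalization.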

How the data were processed

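Gene expression was measured on 1-colour Agilent mouse arrays, with 1 array per model. The authors deposited the scanner intensity of every spot, not normalized between arrays, together with flags of another kind, namely outlier, saturated, and well above background. A matrix of their own processed intensity values was deposited too and served as an alternative. The files held no scan date or slide, so batches were not tested. From the processed signal, log2 was taken, outlier spots (110 to 234 per array) were left out, and spots of 1 probe were averaged. A probe was kept where its signal exceeded the local background by 1.4-fold or more on all 12 arrays (36571 of 39429 probes), and the kept probes were quantile normalized over the 12 arrays. Accessions were matched to RefSeq genes of GRCm38.p6 (27508 probes with 1 symbol), and probes of 1 gene were averaged. No spot was saturated, and 64.3% to 76.4% of spots per array were well above background, most on the 5xFAD array; the number of arrays limits the precision. A gene counted as well above background where at least 5 of 10 replicate spots, or its single spot, carried the flag.

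The members and lists were chosen with earlier results of these data known. Some items of the design and the lists are not reported here. All 10 members were named with every value. Genes of the pathway lists were named where they passed 2-fold in the 5xFAD comparison, together with the constitutive proteasome partners, and so were the 5 genes most like the members. Other list genes, cell type markers included, were named after their values were seen. Lists held 19 other class I heavy chains, 11 loading partners, 3 constitutive and 11 other proteasome subunits, 15 regulators, 9 interferon genes, 8 receptors, and cell type markers. A dim side was bounded by the lowest signal well above background on its array. Alternatives were 75th percentile scaling, quantile normalization within each set, the deposited matrix, normexp on the median signal (offset of 50) in limma 3.58.1 with R 4.3.3, no filter, a 2-fold filter, only probes well above background, the brightest probe per gene, other fold thresholds, and leaving out arrays. The comparison of Aβ with scopolamine was chosen after seeing the data. Scripts used Python 3.11.15, numpy 2.4.6, and pandas 2.3.3 and were tested on simulated data.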

Additional observations from a re-analysis of the deposited data

How the results depend on the processing

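The median 5xFAD ratio of the 10 genes was 1.01 on the log2 scale. It was 0.99 with 75th percentile scaling, 0.99 with quantile normalization within each set, and 0.92 with normexp, all just under 2-fold, and between 0.91 and 1.10 with the MAPT or the NCSTN array left out. The count of 5 genes at least 2-fold higher became 8 at 1.5-fold and 0 at 3-fold, and 4 and 7 without the MAPT and the NCSTN array. Among all 19662 genes the count was 1188 at 2-fold, 2611 at 1.5-fold, and 430 at 3-fold. It was 1245 and 1302 at 2-fold without the MAPT and the NCSTN array. The median of scopolamine against the other ICR arrays (0.12) turned to -0.10 in the deposited matrix and ranged from -0.0035 (without 2.5 mg/kg streptozotocin) to 0.229 when an array was left out. In that matrix the median of all genes was itself -0.22, and -0.19 for Aβ against streptozotocin, where the median of the 10 genes was 0.24. The cause of these changes was not tested. Of 1264 alternatives of single-gene ratios, 1209 kept their sign and their side of 2-fold, and 39 changed sign. Among those 39, 1 had a main ratio of 0.5 or more in size on the log2 scale. A 2-fold call was lost in 11 and gained in 5, most of these for Tap1, H2-D1, and Psmb9. The medians of the NCSTN, age, and Aβ comparisons kept their direction under every alternative run. No paired analysis was possible because each model had 1 array. With 1 array per model no error between animals can be given, and Tap1 is limited by its signal over background, in the cortex and ICR sets above all.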
